A study of Macaca mulatta with 449 samples.

Results

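Neuropeptide genes of the hypothalamus were followed through the rhesus macaque (*Macaca mulatta*) brain, in RNA-seq counts of 51 dissected sub-regions from each of 8 animals. The set held 10 genes chosen by name, *OXT*, *AVP*, *HCRT*, *NPVF*, *TRH*, *CRH*, *GHRH*, *PMCH*, *AGRP* and *KISS1*, of 30807 genes in the table. Of these, 8 were matched to a row, whereas *AVP* and *AGRP* were not matched and are not analysed here. Each sub-region had 1 sample from each of the 8 animals, and the comparison at the centre is the hypothalamus (HTHA, 8 samples) against the other 50 sub-regions (400 samples). No animal carried a transgene or treatment in the labels. Rhesus 2 and Rhesus 3 were males of 10 years, Rhesus 6 a female of 10 years and Rhesus 11 a female of 9.8 years, which made up the 4 mid-aged animals. The 4 young animals, 5 years or younger, were the males Rhesus 7 (4 years) and Rhesus 8 (3.8 years) and the females Rhesus 4 (3.2 years) and Rhesus 10 (5 years). The labels name the hypothalamus as a whole, with no nucleus within it. In such bulk tissue, fewer cells of a type and less RNA per cell cannot be told apart.

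Hypothalamic neuropeptides are made by small, scattered groups of neurons, each as a longer precursor that is cut by prohormone convertases in the secretory granule. Some are released into the blood, from nerve endings in the posterior pituitary or at the median eminence, from where they reach the anterior pituitary and set the output of its hormones. Others, made in the lateral hypothalamus, are carried by long axons to most of the brain and act on sleep, feeding and arousal. Several of the genes, *CRH* and *TRH* among them, are also known from neurons outside the hypothalamus.

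The HTHA samples held between 9057534 and 12359990 counts, within the range of 7784678 to 31083490 over all samples. The hypothalamic transcription factors *NKX2-1*, *SIM1*, *OTP* and *FEZF1* each had a higher mean in HTHA than in any other sub-region and were above 0 in all 8 HTHA samples, whereas *RAX* was at 0 in all 8. The other 2 matched markers of the list did not peak there. *NR5A1* was higher in the pituitary sample (PIT, mean 38.5 CPM) than in HTHA, where it ran from 0.158 to 15.1 CPM, and *LHX6* had its highest mean in the cortex, with HTHA 38th of the 51 sub-regions. The summed level of 6 cortical marker genes, in CPM (counts scaled to a common library size, so that levels of a gene can be set side by side between samples), was 660 in Rhesus 6 and between 16.8 and 21.5 in the other 7 HTHA samples. *SLC17A7*, the vesicular glutamate transporter of cortical neurons, was at 479 CPM in Rhesus 6 against 0.947 to 5.05 CPM in the other 7. The HTHA sample of Rhesus 6 thus held RNA of cortical neurons beside that of the hypothalamus, and the HTHA means and tests against other sub-regions were also computed without it. The 8 oligodendrocyte markers summed to between 3492 CPM, in Rhesus 6, and 35394 CPM, in Rhesus 3. The 7 anterior pituitary markers summed to between 3.80 and 30.1 CPM in HTHA, against a mean of 104378 CPM in PIT. Exact p-values below measure the spread between these 8 animals, whereas those of the edgeR fit over all sub-regions rest on the spread left among all samples once sub-region and animal are accounted for.

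Of the peptides released towards the pituitary, *OXT* (ENSMMUG00000010678), the precursor of oxytocin, acts in birth, lactation and social behaviour. Its level in HTHA was 1119 CPM in Rhesus 2, 175.9 in Rhesus 3, 992 in Rhesus 4, 459 in Rhesus 6, 925 in Rhesus 7, 1795 in Rhesus 8, 202.1 in Rhesus 10 and 673 in Rhesus 11, with a mean of 793 ± 538 CPM (SD, n = 8). Rhesus 8 was highest and Rhesus 3 and Rhesus 10 were lowest, and every HTHA sample was above every one of the 400 samples from elsewhere. The 2 animals with the lowest *OXT* also had the highest oligodendrocyte marker sums in HTHA, 35394 CPM in Rhesus 3 and 20760 CPM in Rhesus 10, and the part of this in the result was not tested. Outside HTHA the mean over the 50 sub-regions was 0.508 CPM, and the HTHA mean was 1559 times that. A single sample, GP (the globus pallidus) of Rhesus 4 at 87.3 CPM, set much of it, and without that sample the mean was 0.291 CPM and the HTHA mean 2724 times that. HTHA held 96.9% of the *OXT* CPM summed over all samples.

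*TRH* (ENSMMUG00000046670), the precursor of thyrotropin-releasing hormone, which drives the thyroid axis, varied least among the HTHA samples. It stood at 118 CPM in Rhesus 2, 119 in Rhesus 3, 92.5 in Rhesus 4, 35 in Rhesus 6, 84.0 in Rhesus 7, 134 in Rhesus 8, 62.9 in Rhesus 10 and 107 in Rhesus 11 (mean 94.0 ± 32.7 CPM). Rhesus 6, with the cortical marker RNA, was lowest, and without it the mean was 102 CPM. The highest sample was 3.83 times the lowest.

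*CRH* (ENSMMUG00000021587) encodes corticotropin-releasing hormone, the peptide at the head of the stress axis. Its HTHA level was 22 CPM in Rhesus 2, 11.1 in Rhesus 3, 35.3 in Rhesus 4, 34.1 in Rhesus 6, 14.3 in Rhesus 7, 91.8 in Rhesus 8, 4.55 in Rhesus 10 and 24.2 in Rhesus 11 (mean 29.7 ± 27.3 CPM). Rhesus 8 stood far above the other 7, which together averaged 20.8 CPM. By its mean, HTHA ranked 24th of the 51 sub-regions for *CRH*, and by its median of 23.1 CPM it ranked 32nd. The mean over the other 50 sub-regions was 34.6 CPM, so the HTHA mean was 0.858 times that.

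*GHRH* (ENSMMUG00000031295), the releasing hormone for growth hormone, and *KISS1* (ENSMMUG00000003647), the kisspeptin precursor that drives the reproductive axis, were close to the limit of counting. *GHRH* had 0 counts in Rhesus 2 and Rhesus 10, 3 in Rhesus 3, 5 in Rhesus 4, 6 in Rhesus 6, 1 in Rhesus 7, 67 in Rhesus 8 and 3 in Rhesus 11. Its HTHA mean of 0.814 ± 1.68 CPM became 0.225 CPM without Rhesus 8. *KISS1* had 8, 3, 10, 1, 6, 34, 1 and 1 counts in Rhesus 2, 3, 4, 6, 7, 8, 10 and 11, a mean of 0.625 ± 0.809 CPM, or 0.357 CPM without Rhesus 8. For both genes most of the signal came from the HTHA sample of Rhesus 8. The samples with 3 counts or fewer lie at the floor, where a level is uncertain, though they stayed in the means and tests.

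Of the peptides of the lateral hypothalamus, *HCRT* (ENSMMUG00000006406) encodes the orexins, which keep an animal awake. The HTHA level was 15.3 CPM in Rhesus 2, 237.7 in Rhesus 3, 276 in Rhesus 4, 23.3 in Rhesus 6, 156 in Rhesus 7, 294 in Rhesus 8, 175 in Rhesus 10 and 2.68 in Rhesus 11 (mean 147 ± 120.02 CPM, 517 times the mean over the other 50 sub-regions). Even the lowest of these was above every sample from elsewhere. *PMCH* (ENSMMUG00000031601), the precursor of melanin-concentrating hormone, which promotes feeding and sleep, was at 56.7 CPM in Rhesus 2, 814 in Rhesus 3, 1615 in Rhesus 4, 29.2 in Rhesus 6, 1640.3 in Rhesus 7, 285 in Rhesus 8, 767 in Rhesus 10 and 1.66 in Rhesus 11. Its mean was 651 ± 681 CPM, 3271 times that of the other 50 sub-regions, and the highest sample was 989 times the lowest. The same 3 samples, of Rhesus 2, 6 and 11, were the lowest for both genes, and a gap separated them from the other 5.

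*NPVF* (ENSMMUG00000008369) encodes the RF-amide peptides known for restraint of the reproductive axis. It was at 34.4 CPM in Rhesus 2, 2.53 in Rhesus 3, 46.8 in Rhesus 4, 14.4 in Rhesus 6, 61.9 in Rhesus 7, 73.3 in Rhesus 8, 4.36 in Rhesus 10 and 0.711 in Rhesus 11 (mean 29.8 ± 28.6 CPM, 147 times the mean of the other 50). The lowest 3 were Rhesus 3, 10 and 11, a different trio from that of *HCRT* and *PMCH*. Over the 8 genes, Rhesus 8 was highest for 7, all but *PMCH*, and Rhesus 11 was lowest for 4, *HCRT*, *NPVF*, *PMCH* and *KISS1*. Without Rhesus 6 the HTHA means were 840.3 CPM for *OXT*, 165 for *HCRT*, 32 for *NPVF*, 29 for *CRH*, 0.845 for *GHRH*, 740.0 for *PMCH* and 0.70 for *KISS1*.

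**Figure D1:**
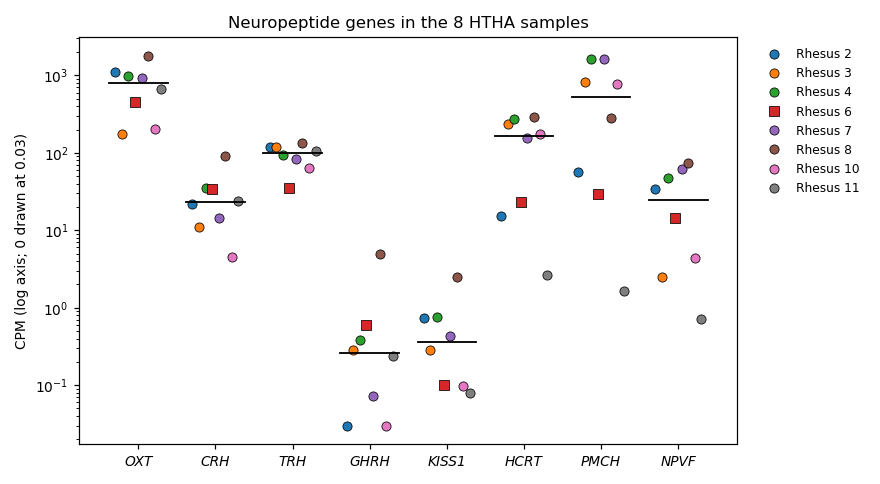
Level of each gene in the 8 HTHA samples, in CPM on a log axis, with values of 0 drawn at 0.03, 1 point per animal and a bar at the median. The square is Rhesus 6, whose sample held cortical marker RNA. *TRH* spans a narrow range (35 to 134 CPM), whereas *PMCH* runs from 1.66 to 1640.3 CPM.

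To ask whether the genes mark the hypothalamus, HTHA was compared with the mean of the other 50 sub-regions with edgeR's quasi-likelihood test, with the animal as a block. All 8 genes were called higher at a Benjamini-Hochberg adjusted p-value (FDR) below 0.05 and a log2 fold change (log2FC) above 1, against 10.5% of all genes tested (2.25% were called lower). The mean here is that of log levels. The log2FC was 13.40 for *OXT*, 12.42 for *PMCH*, 9.07 for *HCRT*, 8.05 for *NPVF*, 6.41 for *TRH*, 4.57 for *KISS1*, 3.23 for *GHRH* and 1.11 for *CRH*. The largest edgeR FDR among the 8 was 1.27e-08, for *CRH*. All 8 passed the filter on low counts, to which the HTHA samples themselves contributed.

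The edgeR fit gives all sub-regions a common spread for each gene, so the spread between the HTHA samples does not enter it on its own. The difference was therefore also taken within each animal, as log2(CPM + 1) in HTHA minus the mean over the other 50, and tested by an exact two-sided sign-flip permutation over the 8 animals, for which the smallest p possible is 0.00781. *OXT* (9.10 ± 1.17, SD), *PMCH* (7.41 ± 3.28), *HCRT* (5.86 ± 2.34), *TRH* (5.16 ± 1.07) and *NPVF* (3.80 ± 2.09) were higher in HTHA in 8 of 8 animals, each at that smallest p by the exact test. *KISS1* (0.55 ± 0.56) gave the same exact p, but 4 of its 8 HTHA samples held 3 counts or fewer, so its direction was read in 4 animals only. *GHRH*, with 5 of 8 HTHA samples at 3 counts or fewer, was higher in 6 of 8 (0.44 ± 0.88, exact p = 0.117) and *CRH* in 5 of 8 (0.46 ± 1.21, exact p = 0.305), and neither passed. Without Rhesus 8, edgeR gave a log2FC of 0.71 for *CRH*, below the threshold, and of 1.24 for *GHRH* (edgeR FDR 0.00891).

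In the stricter comparison a gene had to be over 2-fold higher in HTHA than in each of the 50 other sub-regions at an edgeR FDR below 0.05. This held for 5 of the 8 genes, *OXT*, *HCRT*, *NPVF*, *GHRH* and *PMCH*, against 0.161% of all genes (39 genes). The smallest of the 50 differences was 5.97 on the log2 scale for *OXT*, against GP. It was 6.48 for *HCRT*, against the caudate nucleus (CN), 7.47 for *PMCH*, against GP, 3.69 for *NPVF*, against the corpus callosum (CC), and 2.10 for *GHRH*, also against CC. Without Rhesus 8 the call for *GHRH* was lost, with HTHA higher than 14 of the 50.

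*TRH* and *KISS1* each missed by 1 sub-region. HTHA was higher than 49 for *TRH*, and the difference from the thalamus (THA) was 0.38 ± 0.24 on the log2 scale (SE, edgeR FDR 0.246). For *KISS1* it was the medulla oblongata (MO), at 0.97 ± 0.44 (SE, edgeR FDR 0.0773), and without Rhesus 6 HTHA was higher than all 50. *CRH* was higher in HTHA than in 15 sub-regions, lower than in 2, and not called against the other 33. Those 2 were THA (log2FC -3.56, edgeR FDR 6.04e-30) and MO (log2FC -3.55). When sub-regions were summed into 16 region groups, so that the 31 cortical sub-regions weighed as 1 group, the 5 genes were higher than all 15 other groups, *TRH* and *KISS1* than 14 and *CRH* than 10, with edgeR and with DESeq2.

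Whether single samples overlapped was also counted. The lowest HTHA sample lay above the highest sample of another sub-region for 50 of 50 sub-regions for *OXT* and *HCRT*, 48 for *TRH*, 46 for *PMCH*, 42 for *NPVF*, 16 for *KISS1*, 6 for *CRH* and 0 for *GHRH*. Over all genes and sub-regions 4.69% of such pairs did not overlap, and 0.0165% of genes (4 genes) had no overlap with any of the 50. *PMCH* overlapped through the HTHA sample of Rhesus 11, at 1.66 CPM against 4.08 CPM in GP of the same animal. Within single animals HTHA had the highest level of the 51 sub-regions in 8 of 8 animals for *OXT* and *HCRT*, 7 for *PMCH*, 6 for *NPVF* and *TRH*, 4 for *KISS1* (1 of them, Rhesus 3, at 3 counts), 2 for *GHRH* and 0 for *CRH*.

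**Figure D2:**
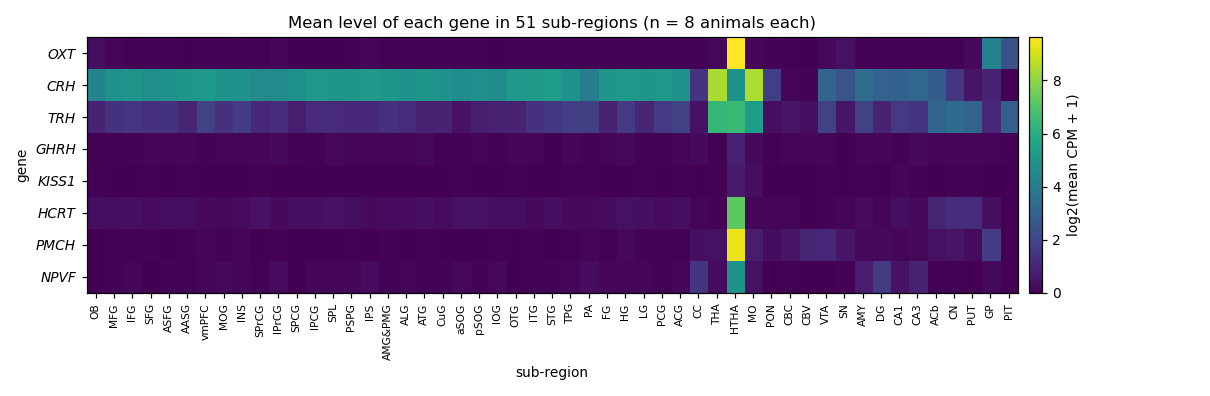
Mean level of each gene (rows) in the 51 sub-regions (columns), as log2(mean CPM + 1) in colour, n = 8 animals each. *OXT*, *HCRT*, *PMCH* and *NPVF* stand out in the HTHA column, *TRH* in HTHA, THA and MO, and *CRH* in THA and MO with a lower level over the cortex.

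Each sub-region was then compared with the mean of the other 50 in the same fit, which shows where the genes are high outside the hypothalamus. Over 51 sub-regions the 8 genes gave 72 calls of higher level, against 6.59% of all such pairs in the table, and 28 of lower level, against 3.1%. A call of lower level was limited in advance for a gene with 0 counts in all samples of another sub-region. The fitted level there can fall freely, so the mean of the others meets a low level at no cost. *PMCH*, with 5 such sub-regions, and *KISS1*, with 14, had 0 calls of lower level, which was not read as no difference. The 3.1%, and the 2.25% of genes called lower in HTHA, have the same limit. One of the 28, *NPVF* in PIT, had 0 counts in all 8 samples, so the size of its fitted difference was not read. Of the 72, 48 were in a sub-region with a mean of at least 1 CPM. *CRH* gave 28 of these, in MO, THA, HTHA and 25 of the 31 cortical sub-regions, and *TRH* gave 7, in HTHA, THA, MO, CN, the accumbens nucleus (ACb), the putamen (PUT) and PIT. In PIT a few samples carried the *TRH* mean of 6.64 CPM. It was 33.4 CPM in Rhesus 8, 10.3 in Rhesus 3 and 6.52 in Rhesus 4, and at most 1.52 CPM in the others.

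*CRH* was highest in MO and THA. In MO it was 986 CPM in Rhesus 2, 1428 in Rhesus 3, 12 in Rhesus 4, 51.9 in Rhesus 6, 22.8 in Rhesus 7, 150.2 in Rhesus 8, 17.9 in Rhesus 10 and 94.8 in Rhesus 11. Rhesus 2 and Rhesus 3 thus carried the MO mean of 345 ± 547 CPM, which was 191 CPM without Rhesus 3, and the other 6 samples were all below every THA sample. In THA the level was even, between 297 and 457 CPM with a mean of 337 ± 51.7 CPM. MO was the higher of the pair in 2 of 8 animals, and their difference did not pass (exact sign-flip p = 0.0781, unadjusted, among 40 comparisons of sub-regions next to each other in rank). Exact p-values of these comparisons are given unadjusted, and after adjustment over the 40 none was below 0.05 (smallest adjusted exact p = 0.0781).

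Below these came the cortex, with *CRH* means from 22.4 CPM in the superior precentral gyrus (SPrCG) to 40.5 ± 11.0 CPM in the superior temporal gyrus (STG). THA was above STG in 8 of 8 animals (exact p = 0.00781, the smallest possible, unadjusted among 40). The HTHA mean of 29.7 CPM lay within the cortical range, and none of the 31 cortical sub-regions was called different from HTHA by the edgeR test. The entorhinal and perirhinal cortex (PA) was kept apart from the 31, and its *CRH* mean was 15.5 CPM. HTHA was above PA by a log2FC of 0.91 (edgeR FDR 0.00425), which is below the fold threshold. *CRH* was lowest in PIT (0.0497 CPM).

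*TRH* had similar means in HTHA (94.0 ± 32.7 CPM) and THA (83.7 ± 31.6 CPM). HTHA was the higher in 6 of 8 animals (exact p = 0.703), all but Rhesus 6 (35 against 144 CPM) and Rhesus 10 (62.9 against 65.0 CPM). The HTHA sample of Rhesus 6 held cortical marker RNA. Without this animal the means were 102 CPM in HTHA and 75.0 CPM in THA, and the exact test was not repeated. MO followed with 39.99 ± 43.7 CPM, from 6.75 CPM in Rhesus 7 to 125 CPM in Rhesus 8, and CN with 9.34 ± 4.94 CPM. Neither the difference between THA and MO (exact p = 0.0469, adjusted 0.234, THA higher in 6 of 8 animals) nor that between MO and CN (exact p = 0.0391, adjusted 0.223, MO higher in 7 of 8) passed after adjustment. Of the 7 hypothalamic markers, *SIM1*, *FEZF1*, *NKX2-1* and *RAX* were at 0 in all 8 THA samples, *OTP* and *NR5A1* were above 0 in 1 (0.0770 CPM each), and *LHX6* was between 0.345 and 2.04 CPM. In MO *SIM1*, *FEZF1* and *RAX* were at 0 in all 8 and *NKX2-1* in 7, whereas *OTP* was above 0 in 6, up to 1.74 CPM in Rhesus 10, *NR5A1* in 5 and *LHX6* in 8. Over the 31 cortical sub-regions *TRH* was the single gene of the set whose level varied (edgeR FDR 0.00171, against 48.3% of all genes called). Its cortical means ran from 0.381 ± 0.239 CPM in the anterior superior occipital gyrus (aSOG) to 2.72 ± 3.85 CPM in the anterior cingular gyrus (ACG), and without the animal block none of the set was called.

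*OXT* outside HTHA was seen in a few samples. In GP it was 87.3 CPM in Rhesus 4, 36.1 in Rhesus 6, 11.99 in Rhesus 3 and 4.92 in Rhesus 2, and between 0.160 and 1.24 CPM in the other 4, with a mean of 17.9 ± 30.6 CPM, or 7.96 CPM without Rhesus 4. The hypothalamic markers were divided in GP. *SIM1*, a transcription factor of the oxytocin neurons, was at 0 in 7 samples and at 0.275 CPM in Rhesus 6, *RAX* was at 0 in all 8, and *OTP* was above 0 in 3, of Rhesus 3, 4 and 11 (at most 0.286 CPM, in Rhesus 4). *FEZF1* (0.545 to 4.07 CPM), *NKX2-1* (0.360 to 3.73 CPM) and *LHX6* (4.83 to 26.7 CPM) were above 0 in all 8 and *NR5A1* in 7 (at most 0.326 CPM), and the part of hypothalamic tissue in the *OXT* of GP was not tested. In PIT *OXT* was 22.9 CPM in Rhesus 8, 6.05 in Rhesus 3, 2.41 in Rhesus 7, 1.39 in Rhesus 4 and 1.03 in Rhesus 10, and at most 0.10 CPM in the other 3. The PIT sample of Rhesus 8 also had the most *TRH* (33.4 CPM), *FEZF1* (11.4 CPM) and *NKX2-1* (20.6 CPM) of the 8. In that sample *SIM1* and *OTP* were at 0. *RAX*, at 0 in all 8 HTHA samples, was above 0 in 5 of the 8 PIT samples (mean 4.34 CPM, median 0.676 CPM). *NR5A1* (21.2 to 58.9 CPM) and *LHX6* (0.639 to 1.61 CPM) were above 0 in all 8 PIT samples. The part of hypothalamic tissue in the *OXT* of the Rhesus 8 PIT sample was not tested. No difference in *OXT* passed between GP and PIT (exact p = 0.336, GP higher in 5 of 8 animals), or between PIT and the substantia nigra (SN) (exact p = 0.125), where the level was 2.33 CPM in Rhesus 4 and the mean of the other 7 was 0.0796 CPM.

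**Figure D3:**
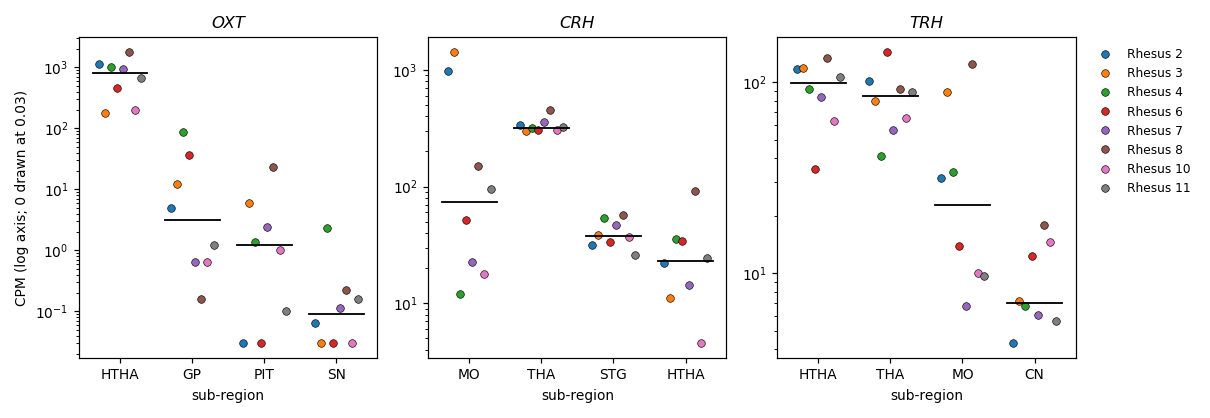
Levels by animal of *OXT*, *CRH* and *TRH* in HTHA and in the other sub-regions with the highest means, in CPM on a log axis, with 0 drawn at 0.03 and a bar at the median (n = 8 each). *OXT* in GP ranges from 0.160 to 87.3 CPM and *CRH* in MO from 12 to 1428 CPM, whereas *CRH* in THA stays between 297 and 457 CPM.

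The other genes were present at low levels outside HTHA. *HCRT* had its next means in PUT (1.39 ± 0.460 CPM), CN (1.36 ± 0.616 CPM) and ACb (0.989 ± 0.332 CPM), all of the striatum, where every sample held counts. Neighbours in rank among these 3 did not pass the test (exact p = 0.852 for PUT and CN, 0.203 for CN and ACb), while HTHA was above PUT in 8 of 8 animals (exact p = 0.00781). *NPVF* followed HTHA in the dentate gyrus (DG, 2.07 ± 2.38 CPM), CC (1.79 ± 2.28 CPM) and CA3 (0.930 ± 1.68 CPM). Single samples set the last 2 of these, Rhesus 10 with 7.22 CPM in CC and Rhesus 8 with 4.98 CPM in CA3, and without them the means were 1.01 and 0.352 CPM. DG was 1.35 CPM without Rhesus 4.

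*PMCH* was next in GP (2.23 ± 1.34 CPM), the ventral tegmental area (VTA, 1.11 ± 0.399 CPM) and the cerebellum vermis (CBV, 1.07 ± 0.543 CPM), with HTHA above GP in 7 of 8 animals (exact p = 0.0156). In 5 sub-regions all 8 samples had 0 counts of *PMCH*. *KISS1* had 0 counts in all 8 samples of 14 sub-regions. Its mean in MO, 0.319 ± 0.720 CPM, came from Rhesus 4 at 2.08 CPM and was 0.0679 CPM without it, and the difference between HTHA and MO did not pass (exact p = 0.336). CA1 (0.0823 CPM) and PUT (0.0765 CPM) were next. *GHRH* was at 0.192 ± 0.186 CPM in MO, 0.188 ± 0.137 CPM in CC and 0.177 ± 0.153 CPM in CA3, all near the level of a few counts, and HTHA was above MO in 5 of 8 animals (exact p = 0.273).

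Within HTHA the 4 mid-aged animals were compared with the 4 young ones, with sex as a covariate. None of the 8 genes was called at an edgeR FDR below 0.1, against 0.0055% of all genes (1 gene), and all 8 had an FDR of 0.999. At an unadjusted p below 0.05 there were 3 with edgeR and 2 with DESeq2, which also called 0. The 3 were *PMCH* (log2FC of mid-aged over young -3.64, 95% interval -7.19 to -0.09), *HCRT* (-2.42, -4.75 to -0.08) and *KISS1* (-1.66, -3.24 to -0.07). For *KISS1* 4 of the 8 samples held 3 counts or fewer, and the highest, at 34 counts, was the young Rhesus 8. *PMCH* was 285, 767, 1615 and 1640.3 CPM in the young and 1.66, 29.2, 56.7 and 814 CPM in the mid-aged animals, so the groups overlapped through Rhesus 3. *HCRT* ran from 156 to 294 CPM in the young and was 2.68, 15.3, 23.3 and 237.7 CPM in the mid-aged, again with Rhesus 3 among the young. The 29.2 CPM of *PMCH* and the 23.3 CPM of *HCRT* were those of Rhesus 6, whose HTHA sample held cortical marker RNA.

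Leaving out 1 animal at a time, the log2FC for *PMCH* ran from -5.31 to -2.36 and that for *HCRT* from -4.03 to -1.65. *NPVF* (-1.82, 95% interval -3.84 to 0.20), *GHRH* (-2.03, -4.84 to 0.77), *OXT* (-0.55, -1.91 to 0.80) and *CRH* (-0.55, -2.24 to 1.13) were also below 0, and *TRH* was at 0.02 (-0.69 to 0.72). The median over the 8 was -1.74, against 0.02 over all genes. No gene of the set had groups without overlap, against 1.92% of all genes.

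Between 4 males and 4 females, with age stage as a covariate, none was called either, against 0.0824% of all genes (15 genes), with edgeR FDRs from 0.951 to 0.966. At an unadjusted p below 0.05 there was 1 gene with edgeR and 1 with DESeq2, which also called 0. It was *KISS1* in edgeR's fit (log2FC of males over females 1.80, 95% interval 0.23 to 3.38), a gene with 34 counts in its highest sample. All 8 log2FCs were above 0, with a median of 1.48 against 0.00 over all genes. *OXT* was at 0.69 (-0.67 to 2.04) and *TRH* at 0.61 (-0.11 to 1.32). Males and females overlapped for each of the 8 genes (1.73% of all genes did not overlap). Genes of the same 8 samples are not independent of each other, so the number with a common sign is a description.

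**Figure D4:**
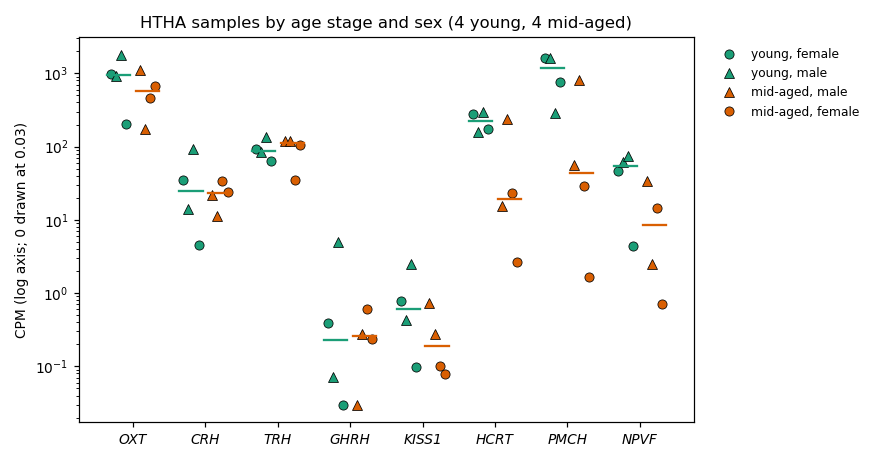
Level of each gene in the 8 HTHA samples by age stage (colour) and sex (symbol), in CPM on a log axis, with 0 drawn at 0.03 and a bar at the median of each stage (n = 4). Young and mid-aged samples overlap for every gene, with medians of 1191 and 42.9 CPM for *PMCH* and of 88.3 and 112 CPM for *TRH*.

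Levels of 2 genes were then compared over the 8 HTHA samples, as Pearson's r and Spearman's rho of log2(CPM + 1) for all 28 pairs. By the exact two-sided permutation test 6 pairs had p below 0.05 and 0 did after adjustment over the 28. *HCRT* and *PMCH* had r = 0.94 (exact permutation p = 0.00511, adjusted 0.143) and rho = 0.60 (p = 0.132, adjusted 0.504, exact permutation). Both genes split the samples into the same 3 low and 5 high ones, so that a coefficient over all 8 describes the gap, and within these sets the relation cannot be tested. *OXT* and *CRH* both have neurons in the paraventricular nucleus, and they had r = 0.78 (exact permutation p = 0.0183, adjusted 0.171) and rho = 0.69 (p = 0.0694, adjusted 0.389, exact permutation), with r = 0.47 without the 2 samples farthest from the median of *OXT*. *CRH* and *GHRH* had r = 0.79 (exact permutation p = 0.0124, adjusted 0.171) and 0.53 without 2 samples. For *GHRH* 5 of the 8 samples held 3 counts or fewer, and Rhesus 8 was the highest sample for both genes. The 5 pairs known to share a nucleus had a median r of 0.78, against 0.40 for the other 23. When each pair lost its 2 farthest samples the medians were 0.47 and 0.49, with no test made between these sets of pairs. Among the 5, *GHRH* and *KISS1* (r = 0.80, or 0.12 without 2 samples) are both near the floor of counts. *HCRT* and *PMCH*, split by the gap, are another of the 5. On CPM without the log, 4 pairs passed (*OXT* with *NPVF* and *KISS1*, *NPVF* with *KISS1*, *CRH* with *GHRH*, adjusted exact permutation p = 0.0391 each), all of them genes with Rhesus 8 as the highest sample.

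Other peptides, the receptors and the processing enzymes show what surrounds the set. Of 28 other neuropeptide genes, 22 were tested, and 12 were higher in HTHA than the mean of the other 50 sub-regions, 1 lower and 9 not called (10.5% and 2.25% of all genes were higher and lower), with a median log2FC of 1.65 against 0.03 over all genes. *CARTPT*, the precursor of the appetite-reducing CART peptides, was at 103 ± 63.9 CPM in HTHA (log2FC 4.87) and higher there than in 49 of 50 sub-regions. *SST* (somatostatin, 264 ± 133 CPM, log2FC 2.42), *PENK* (enkephalins, log2FC 1.97) and *PDYN* (dynorphins, log2FC 1.78) were higher too, although the last 2 were at 2233 and 781 CPM in CN against 164 and 137 CPM in HTHA. *NPB*, named after its value was seen, was the 1 gene of this list above all 50, at 0.367 ± 0.290 CPM. *CCK* was lower (log2FC -1.18), and *NPY* (0.28), *PNOC* (0.77) and *VIP* (-0.81) were not called. The HTHA sample of Rhesus 6, with its cortical marker RNA, raised 2 of these. Without it the HTHA mean fell from 26.2 to 13.8 CPM for *CCK* (log2FC -2.03) and from 5.37 to 1.77 CPM for *VIP*, which was then called lower (log2FC -2.26, edgeR FDR 0.000135).

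Of 16 receptor genes for these peptides 15 were tested, and 7 were higher in HTHA, 1 lower and 7 not called, against the same 10.5% and 2.25% of all genes and with a median log2FC of 0.57. The oxytocin receptor *OXTR* (5.24 ± 1.99 CPM, log2FC 1.89), the kisspeptin receptor *KISS1R* (7.92 ± 3.39 CPM, log2FC 2.58), the melanocortin receptor *MC4R* (6.57 ± 3.69 CPM, log2FC 3.12) and *NPFFR1*, a receptor for the *NPVF* peptides (3.74 ± 1.96 CPM, log2FC 1.83), were among the higher ones. *CRHR1*, a receptor for corticotropin-releasing hormone, was lower (6.03 ± 4.84 CPM, log2FC -1.47). *HCRTR1* (log2FC -0.21), *MCHR1* (-0.35) and *AVPR2* (0.57) were not called. *MCHR2*, named after its value was seen, is also counted as not called. It was at 0.105 CPM in HTHA, against a median of 2.12 CPM over the means of the other sub-regions (log2FC -3.31). The test gave no standard error for it and could not decide on a lower level, so this is not read as no difference. Of 7 genes for processing and binding, the prohormone convertase *PCSK1* (log2FC 1.29), its inhibitor *PCSK1N* (1.28) and the *CRH* binding protein *CRHBP* (2.20) were higher, 3 of 7 against 10.5% of all genes, with a median of 0.69 over the 7. *PCSK2* (-0.33), *CPE* (-0.36), *PAM* (0.69) and *SCG5* (0.12), which act in the same granules, were not called. None of the receptors or processing genes was above all 50 sub-regions.

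The genes whose mean log2(CPM + 1) over the 51 sub-regions was most like that of each gene were ranked among 16273 genes by Pearson's r, a description over 51 points that share animals. For *OXT* these were *FEZF1* (r = 0.993), *CSN1S1* (0.945) and *FOXB2* (0.936), for *HCRT* *CSN1S1* (0.957), *FADS2B* (0.934) and *FOXB2* (0.931), and for *NPVF* *FOXB2* (0.898), *FADS2B* (0.898) and *Metazoa_SRP* (0.897). *TRH* was most like *NTS* (0.791), the neurotensin gene, then *IL1R2* (0.757) and *LVRN* (0.754). For *PMCH* the order was *PARPBP* (0.981), *OTP* (0.967) and *SIM1* (0.959), and for *CRH* it was *TRIM55* (0.996), *PNOC* (0.873) and *DPP10* (0.860). Among the 8 genes themselves, *OXT* and *PMCH* were most alike (r = 0.96), whereas *CRH* had r between -0.11 and 0.23 with the other 7.

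*PARPBP* and *TRIM55* lie next to *PMCH* and *CRH* in the RefSeq annotation, the first with an overlapping span. *PARPBP* was at 705 ± 753 CPM in HTHA and at 0.358 CPM elsewhere, and its level was between 0.973 and 1.16 times that of *PMCH* in each of the 8 HTHA samples, from 1.66 CPM of *PMCH* up to 1640.3. *TRIM55* was between 0.422 and 0.682 times *CRH* in the same samples. Since the strand setting of the counting is not given in the sources used here, reads of *PMCH* and *PARPBP* cannot be told apart, and whether *CRH* and *TRIM55* share reads was not tested.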

How the data were processed

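RNA-seq after ribosomal RNA depletion covered 51 sub-regions in each of 8 rhesus macaques, and every one of these samples was used. Per the labels and the study's methods, the authors ran Trim Galore 0.4.4 on samples of poor read quality, HISAT2 2.0.5 for mapping and HTSeq 0.6.1 for counting on Ensembl genes. The deposited values are raw counts per gene, with no normalization. How HTSeq treated strand and overlap is not given in the sources used here, which leaves overlapping genes uncertain. The 8 matched genes of the set took their symbols from the reference name tables, and some genes of the other lists theirs from the study's supplement. No coordinates are given because the RefSeq table used for names holds another assembly. Totals ran from 7784678 to 31083490 counts (median 10698602). Samples at or below a floor of 3 counts, set for counting error only, were counted but not taken out of any mean, rank or test.

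The main test was the quasi-likelihood F test of edgeR 4.0.16 (R 4.3.3, limma 3.58.1) on TMM-scaled counts of the 24243 of 30807 genes that exceeded 1 count in 3 or more samples, with sub-region and animal as terms and Benjamini-Hochberg adjustment over all genes. Sub-region calls needed FDR < 0.05 and an absolute log2FC > 1, and calls for age and sex within HTHA FDR < 0.1 and the same fold. Contrasts were computed in Python 3.11.15 (numpy 2.4.6, scipy 1.17.1, pandas 2.3.3, numba 0.67.0), and F differed from edgeR's own by less than 0.001 of its value for 100 genes. CPM are counts scaled to the TMM library size. Other tests were exact permutations over the 8 animals, and the pseudocount was 1 CPM. The scripts were checked on simulated data. Figures used matplotlib 3.10.9.

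The animals pair the samples, which come from the same 8 brains. Deviations from sub-region means correlated with a median r of 0.44 within an animal and -0.06 between animals. Of 1428 pairs of samples within a sub-region, none were alike within sampling noise. Alternatives were no block, filterByExpr, DESeq2 1.42.0 or its size factors, 16 region groups, no covariate, another pseudocount or no log, and HTHA samples left out. After seeing the data, the fits without the HTHA sample of Rhesus 8, the sign-flip over animals, and the list counts without Rhesus 6 or Rhesus 8 were added. The genes, lists and tests were chosen with earlier results of these data known. Named were the 10 genes of the set, for each with at least 1 CPM in HTHA the 3 genes most like it over the sub-regions, the 4 most abundant in HTHA of those called higher and of the rest among other peptides and receptors, all processing genes, and the 3 other sub-regions with the highest mean. Midbrain and ATAC-seq samples were left out, as midbrain may mix with its neighbours and ATAC-seq measures another quantity.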

Additional observations from a re-analysis of the deposited data

Results flagged for a closer look

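In 10 of 27 sets of 8 samples, drawn from the sub-regions where each gene is highest, the highest sample stood so far from the next that Dixon's test at 95% set it apart. For normally distributed values this happens in about 1 of 20 sets, a rate that holds for sets not chosen by level. Levels here were CPM without the log, which need not be normal, so the counts are a description. The sets outside HTHA were also chosen by their mean, which an outlying sample raises. Of the 8 sets in HTHA, which share the same samples, 3 were set apart. In HTHA it was Rhesus 8 for *CRH* (91.8 CPM), *GHRH* (4.94 CPM) and *KISS1* (2.51 CPM), and the same animal stood apart for *CRH* in THA (457 CPM), *OXT* in PIT (22.9 CPM) and *NPVF* in CA3 (4.98 CPM). Rhesus 4 stood apart for *OXT* in GP (87.3 CPM), *OXT* in SN (2.33 CPM) and *KISS1* in MO (2.08 CPM), and Rhesus 10 for *NPVF* in CC (7.22 CPM). Rhesus 8 and Rhesus 4 thus gave 9 of the 10. Without the highest sample the mean was over 1.5 times lower for *OXT* in GP, PIT and SN, *NPVF* in CC and CA3, *GHRH* in HTHA and *KISS1* in HTHA and MO, and also for *NPVF* in DG, *CRH* in MO and *KISS1* in CA1 and PUT, which the test did not set apart.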

How the results depend on the processing

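Of 62 recomputed log2FCs of HTHA over the mean, 59 stayed on their side of the threshold and 0 reversed. The exceptions were *CRH* without Rhesus 8 (0.71) and *CRH* and *GHRH* under the sign-flip over animals (0.46 and 0.44), which has no fold threshold and was read by its exact p alone. On its log2(CPM + 1) scale *KISS1* was also below 1, at 0.55. The filterByExpr filter removed *GHRH* and *KISS1*, so that 6 genes were called against the mean and 4 against every sub-region. Without the replicate block the counts of called genes of the set were 8 and 5 as before, calls of single sub-regions were 70 in place of 72, and the cortical variation of *TRH* was lost (0 called). Over all genes, 2544 were higher in HTHA, 1474 with filterByExpr and 1400 with DESeq2 on region groups. 545 were lower, 849 without Rhesus 6, 474 without Rhesus 8, 111 with edgeR and 113 with DESeq2 on region groups. For age, 1 gene was called, 9 with DESeq2, 0 with filterByExpr and 0 to 1 when 1 animal was left out. For sex, 15 were called, 27 with DESeq2. Pairs past the adjusted threshold were 0, and 4 without the log.

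Of 94 recomputed age differences of the set, 7 changed sign. *TRH*, near 0, ran from -0.33 to 0.27 as animals were left out, with -0.03, -0.01, -0.14, -0.06 and -0.33 without Rhesus 2, 3, 7, 10 and 11. *CRH* ran from -1.12 to 0.42 and *GHRH* from -2.99 to 0.88, with the highest value of each without Rhesus 8. Of 94 sex differences 3 changed sign, *CRH* (range -0.68 to 0.73) without Rhesus 8 (-0.68) and Rhesus 10 (-0.27), and *GHRH* (range -1.44 to 2.68) without Rhesus 8. Of 84 recomputed coefficients of pairs 9 changed sign. Without the log these were *OXT* and *HCRT* (0.26), *HCRT* and *CRH* (0.38), *TRH* and *PMCH* (-0.073), *GHRH* and *PMCH* (-0.23) and *PMCH* and *KISS1* (-0.062), with a pseudocount of 0.1 *GHRH* and *PMCH* (-0.045), and without Rhesus 6 *HCRT* and *TRH* (-0.18), *HCRT* and *CRH* (0.0047) and *TRH* and *PMCH* (-0.36). The cause of these changes was not tested. Genes with a few counts, *GHRH* and *KISS1* in most HTHA samples, are imprecise at this depth.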
